A study of Mus musculus with 13 samples.

Results

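The resting T cell and homing programme is a set of 9 genes chosen by name from what is known of quiescent, recirculating T cells, out of 24417 named genes in each count table. It holds 6 genes of transcriptional regulators (*Tcf7*, *Lef1*, *Bach2*, *Klf2*, *Satb1* and *Foxo1*), 2 genes of homing receptors (*Ccr7* and *S1pr1*) and the gene of the interleukin-7 receptor alpha chain (*Il7r*). All 9 symbols were found in both tables, and all 9 passed the filter on low counts in each fit. The genes were picked with earlier results of these libraries known, so their directions are a description of the programme and not a test of it.

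A T cell that has not met its antigen circulates between blood and lymph nodes in a quiescent state held by transcription factors. FOXO1 and KLF2 switch on the receptors for entry into and exit from lymph nodes, the products of *Tcf7* and *Lef1* bind beta-catenin and keep T cells able to renew, BACH2 represses effector genes, and SATB1 organises chromatin. Activated T cells, effector regulatory T (Treg) cells among them, usually lower much of this programme, and Treg cells usually carry less interleukin-7 receptor than other CD4 T cells.

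RNA was sequenced in bulk from T cells sorted from spleen and lymph nodes of C57BL/6 mice, in 13 libraries of 5 groups. The *Foxp3*LSL allele carries a Thy1.1 reporter and a STOP cassette between loxP sites ahead of a GFP-tagged *Foxp3*, so that cells using it are Treg “wannabes” that lack Foxp3 protein until Cre removes the cassette. The male experiment compared control Treg cells from healthy Foxp3DTR-GFP/y Cd4creERT2 mice (3 libraries), rescued Treg cells from Foxp3LSL/y Cd4creERT2 mice in which the allele had been switched on (3), and wannabes from sick Foxp3LSL/y Cd4wt mice (2). Each of these mice received 4-hydroxytamoxifen once on postnatal day 14 and was analysed on day 21. The female experiment compared resting wannabes from Foxp3LSL/WT Cd4wt mice (3 libraries) with activated wannabes from Foxp3LSL/DTR Cd4wt mice (2), where diphtheria toxin removes the Treg cells that carry the toxin receptor and leaves the wannabes in a sick animal. Female ages are labelled 9 to 11 weeks, and 8 to 10 weeks in the text on treatment. The first was taken as the age at analysis and the second as that at treatment. The sample labels give 4 toxin doses, 7, 5, 3 and 1 days ahead of analysis, for resting and activated wannabes alike.

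The *Cd4* promoter drives the tamoxifen-dependent Cre in CD4-expressing cells at large, not in Treg cells alone. Both male Treg groups carry this Cre and male wannabes do not, and control Treg cells alone among the male groups come from mice born with a working *Foxp3* allele. Health, Cre and the *Foxp3* allele therefore cannot be told apart between control Treg cells and male wannabes. Health, the *Foxp3* allele and its late switching on cannot be told apart between rescued and control Treg cells. Between rescued Treg cells and male wannabes, Foxp3 protein, Cre and the course of disease after treatment cannot be told apart. Sex, age and treatment all differ between the experiments, so levels were not compared across them. Fewer cells of a type and less RNA per cell cannot be told apart in bulk libraries.

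Total counts lay between 25558402 in rescued Treg replicate 2 and 36660933 in rescued Treg replicate 3. Control Treg libraries held 30263824, 34472682 and 33756032 counts, rescued replicate 1 held 35618641, and male wannabes held 34101232 and 31942224. Resting wannabe libraries held 28061669, 29075913 and 28540943 counts, and activated ones 31464218 and 31351030.0. Levels are given below as normalised counts, meaning reads per gene scaled to a common library size by the TMM method. A log2 fold change of 1 is a doubling, SE is its standard error, and a gene is said to be called when its edgeR quasi-likelihood p, adjusted over all genes tested by Benjamini and Hochberg, is under 0.05.

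*Foxp3*, the gene that defines Treg cells, had normalised counts of 5466, 7046 and 8282 in control Treg cells, 28404, 29736 and 36479.7 in rescued Treg cells, and 2759.8 and 3280.5 in male wannabes. Among females it had 2074, 1995 and 2224 in resting wannabes and 1570.0 and 1731 in activated wannabes. *Thy1*, whose Thy1.1 form is the reporter of the LSL allele, ran the other way, with 1527, 1349.6 and 1461 in control Treg cells, 1408, 1190.5 and 1310.2 in rescued Treg cells, and 6425 and 10741 in male wannabes. Its female counts were 5532, 6569 and 5781 in resting wannabes and 5222 and 5947 in activated wannabes. Each wannabe library thus lay above each Treg library in *Thy1* and below it in *Foxp3* within the male experiment. The columns of the male table named GFP and Thy1 were taken as rescued Treg cells and male wannabes from the sort gates and from these same genes, so the counts are no separate check of that match.

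The summed level of 8 T cell genes, *Lck* the most abundant, lay between 182044 and 264858 normalised counts per library. *Cd4* was lower than in wannabes by −1.51 (SE 0.16, adjusted p 0.000456) in control and by −1.27 (SE 0.16, adjusted p 0.000589) in rescued Treg cells, and *Bcl11b* higher by 0.90 (SE 0.19, adjusted p 0.0103) and 1.27 (SE 0.20, adjusted p 0.00159). In activated wannabes *Cd2* was higher by 0.53 (SE 0.09, adjusted p 0.00838) and *Cd3e* lower by −0.29 (SE 0.07, adjusted p 0.032), called in 3 and 2 of 5 fits that leave out 1 library. Sums of markers of other cells were smaller. The 5 B cell genes summed to 290.2 to 1450 counts, with *Cd79b* the most abundant, and the 2 CD8 genes to 288 to 914, nearly all from *Cd8b1*. Sums for 3 natural killer cell, 7 myeloid, 4 dendritic, 4 red cell and 4 immature thymocyte genes stayed at or below 543 counts in each library. *Klra8*, a natural killer cell gene, and *Rag1*, which marks immature thymocytes, were at 0 in each library.

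Some of these markers moved with the groups. *Cd79b* was called higher in activated than in resting wannabes, at 1.34 (SE 0.15, adjusted p 0.00193), and the B cell genes summed to 359.9, 344 and 290.2 in resting and 735 and 669.6 in activated libraries. In control Treg cells against wannabes, the natural killer cell gene *Klrb1c* was called at −2.85 (SE 0.76, adjusted p 0.0263), the red cell gene *Hba-a1* at −3.17 (SE 0.98, adjusted p 0.0483) and the myeloid gene *Itgam* at 4.03 (SE 1.06, adjusted p 0.0256). With 1 library left out, *Klrb1c* was called in 5 of 8 fits (−3.45 to −2.55), *Hba-a1* in 2 of 8 (−3.95 to −1.61) and *Itgam* in 5 of 8 (3.15 to 6.42), and *Cd79b* in 5 of 5 (1.27 to 1.38). The natural killer cell genes summed to 20.3, 13.7 and 43.5 in control Treg cells, 101, 222 and 94.8 in rescued Treg cells and 151 and 225 in male wannabes. For myeloid genes the sums were 335, 146 and 358 in control Treg cells, 278, 77.6 and 107 in rescued Treg cells and 53.5 and 32.4 in male wannabes, with *Itgam* the most abundant except in male wannabe replicate 1, where *Adgre1* was. Red cell genes, *Hba-a1* among them, had 228, 80.1 and 107 in control Treg cells, 66.2, 268 and 155 in rescued Treg cells and 423 and 112 in male wannabes. DESeq2 alone called *Ncr1* and *Klrb1c* higher in rescued than in control Treg cells, *Itgam* and *Xcr1* in 1 comparison each against wannabes, and *Cd79b* and *Hba-a1* in the difference of the changes. The sort described in the methods kept CD4 T cells without CD8 and without NK1.1, the product of *Klrb1c*. The part of any such cells in the results below was not tested.

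Libraries were also compared within the groups of 3. Rescued replicate 1 held 95 of 10697 genes at over 3 times the level of both other rescued libraries, against 10 and 11 such genes for replicates 2 and 3. Resting replicate 1 held 24 of 10369 such genes, against 2 and 2 for the other resting libraries, and the 3 control libraries held 11, 27 and 22 of 10718. Over 3-fold below both others were 64, 66 and 26 genes in control replicates 1, 2 and 3, 33, 18 and 29 in the rescued ones and 4, 5 and 11 in the resting ones. *Klf2* was among the genes above in rescued replicate 1 and resting replicate 1. *Foxo1* was not, with 6996 normalised counts in resting replicate 1 against 2706 and 2979 in the other resting libraries. The results of both genes are given with and without these libraries. A call made only without them rests on a library set aside for its level in that gene, and is a description and not a test. The 2 male wannabe libraries differed from each other with the GC content of transcripts (Spearman's rho over 10120 genes, which are not independent replicates, −0.586 for replicate 1 and by construction 0.586 for replicate 2). In the other libraries this rho lay between −0.207 and 0.301. Where a correction for GC content, added after seeing the data, changes a call or a direction, its value is given.

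Rescued against control Treg cells asks how Treg cells switched on in sick mice differ from those of healthy mice. Here 6 of the 9 genes were called, against 2.30% of 14925 genes tested. *Satb1* and *Il7r* were higher in rescued Treg cells (2 of 9, against 1.43% of all genes), and *Tcf7*, *Lef1*, *Bach2* and *Ccr7* were lower (4 of 9, against 0.864%). The median log2 fold change of the 9 genes was −0.54 against −0.03 over all genes tested. In fits without 1 library the count of all genes called moved too (ranges at the end), so the members' counts there are not set against the shares above. The members' count rests on few libraries. It was 2 without control replicate 1, 3 without control replicate 2, 3 without control replicate 3, and 2 (*Tcf7* and *Bach2*) without rescued replicate 1. All 6 calls were kept in each of the 7 other planned settings of this comparison.

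Treg cells against male wannabes sets cells with Foxp3 beside cells that lack it, from mice that differ also in Cre and in health or course of disease. Of the 9 genes, 5 were called in control Treg cells against wannabes, next to 16.2% of all genes. *Bach2* and *Foxo1* were higher in control Treg cells (2 of 9, 9.92% of all genes), while *Tcf7*, *Ccr7* and *Il7r* were lower (3 of 9, 6.27%). The members' median was −0.03 against 0.09 over all genes tested, and the count was 3 without control replicate 1 and 3 without control replicate 2. In rescued Treg cells against wannabes, 4 were called, next to 14.1% of all genes. *Satb1* and *Foxo1* were higher in rescued cells (2 of 9, 10.0%) and *Tcf7* and *Ccr7* lower (2 of 9, 4.06%), with a median of −0.09 against 0.00 over all genes tested. These comparisons share libraries with each other, so their values are set side by side and not as separate evidence.

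Activated against resting wannabes asks how cells without Foxp3 change when the animal around them falls ill. Only 2 of the 9 genes were called, a share close to the 22.5% of 13166 genes called in all. *Satb1* was higher (1 of 9, 11.3% of all genes) and *Bach2* lower (1 of 9, 11.2%), and the median was 0.04 against −0.01 over all genes tested. The count was 4 without resting replicate 1, which adds *Klf2* and *Foxo1*, in both of which that library was the highest of its group. The count of all genes called in the same fit is not set beside it. The calls of *Satb1* and *Bach2* were lost by edgeR without activated replicate 1 or activated replicate 2, which leaves 1 activated library. DESeq2 was not run without single libraries.

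The difference of the changes, which is the rescued against control change minus the activated against resting change, was tested over all 13 libraries. It was called for 3 of the 9 genes, next to 1.53% of 15201 genes. *Il7r* was higher in this difference (1 of 9, 0.803% of all genes) and *Tcf7* and *Bach2* were lower (2 of 9, 0.730%). The members' median was −0.51 against −0.03 over all genes tested. All of these calls were lost by edgeR without activated replicate 1 or activated replicate 2, which leaves 1 activated library. Without both rescued replicate 1 and resting replicate 1, a choice made after seeing the data, 3 genes were called, all lower: *Bach2*, *Klf2* and *Foxo1*.

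**Figure D1:**
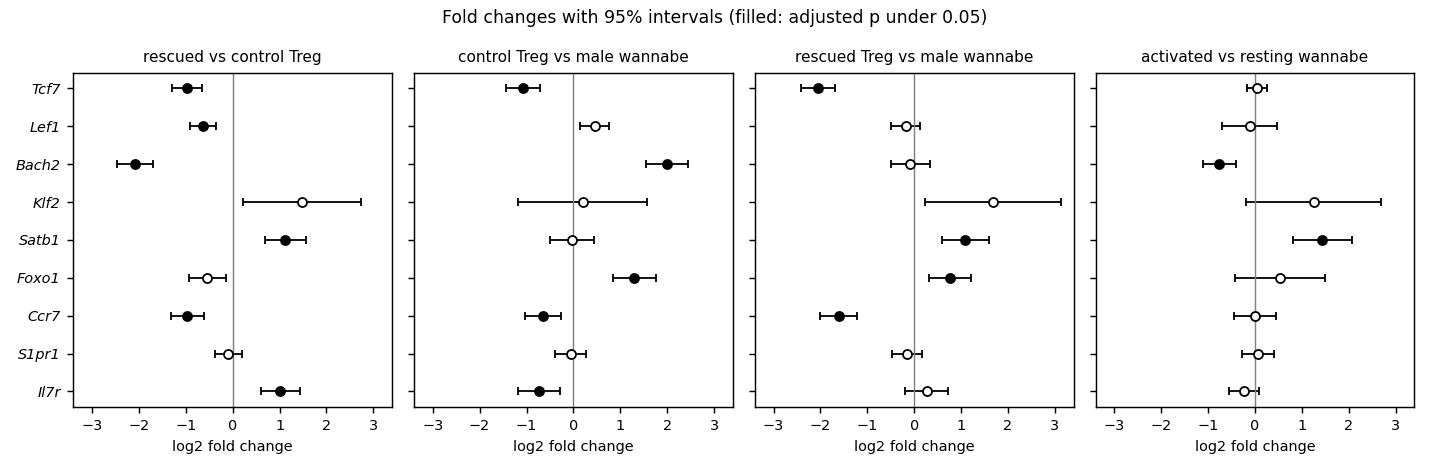
Log2 fold change (horizontal axis) of the 9 genes in each comparison, 1 panel per comparison, with 95% intervals as bars; filled points have an adjusted p under 0.05. *Bach2* lies at −2.08 for rescued against control and at −0.76 for activated against resting.

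Per length, the genes differ widely in level. In control Treg cells *Ccr7* had 295 ± 1.62 CPM per kb of transcript (counts scaled to library size and length, SD, n = 3), followed by *S1pr1* with 287 ± 35.2 and *Lef1* with 171 ± 1.95, while *Bach2*, *Foxo1* and *Klf2* were the lowest with 30.8 ± 3.78, 21.9 ± 2.65 and 14.4 ± 1.19. In rescued Treg cells *S1pr1* took the top place on this scale with 270.0 ± 26.1, ahead of *Ccr7* with 151 ± 20.2 and *Il7r* with 115 ± 25.3. *Il7r* moved from the fifth place in control to the third in rescued Treg cells, and *Tcf7* from the fourth to the sixth. *Ccr7* led in male wannabes, in resting wannabes and in activated wannabes, where *S1pr1* was in the second place each time. The lowest place went to *Bach2* in rescued Treg cells, male wannabes and activated wannabes.

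*Tcf7* (ENSMUSG00000000782.15, GRCm38 chromosome 11, 52252371 to 52283014, minus strand) encodes the HMG-box factor that keeps T cells in a self-renewing state. Normalised counts of *Tcf7* were 10314, 9578 and 9386 in control Treg cells, 5201, 5493 and 4183 in rescued Treg cells, and 18815 and 22299.6 in male wannabes. The 3 male groups did not overlap, and their order was wannabes, control, rescued, with each neighbour called as different. Against wannabes, control Treg cells stood at −1.07 (SE 0.16, adjusted p 0.00187) on the log2 scale. Rescued Treg cells stood at −2.05 (SE 0.16, adjusted p 0.000202) against wannabes and at −0.98 against control. All 3 male calls were kept whichever library was left out. In females, the counts of 15618, 14446 and 16624 in resting wannabes and 15393 and 16689 in activated wannabes overlapped, with a log2 fold change of 0.04 (SE 0.09, adjusted p 0.772) and a 95% interval of −0.17 to 0.25. The changes differed by −1.01 (SE 0.18, adjusted p 0.0145), a call lost without activated replicate 1 or activated replicate 2, when the difference was −1.06 to −0.94 (adjusted p 0.0746 to 0.118). Without both rescued replicate 1 and resting replicate 1 it was −1.02 (adjusted p 0.051).

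*Lef1* (ENSMUSG00000027985.14, chromosome 3, 131110471 to 131224356, plus strand) encodes the close relative of the *Tcf7* product. Normalised counts of *Lef1* were 19494, 19822 and 19395 in control Treg cells, 12142, 11519.5 and 14148 in rescued Treg cells, and 13910.5 and 14742 in male wannabes. The 3 control libraries lay close together and above the other 5, while rescued Treg cells and male wannabes overlapped. Rescued against control gave a log2 fold change of −0.64 (SE 0.13, adjusted p 0.0264). That call was lost without control replicate 1, 2 or 3 or rescued replicate 1 or 2, with values of −0.65 to −0.56 (adjusted p 0.0922 to 0.122). Control against wannabe cells missed the threshold at 0.45 (SE 0.14, adjusted p 0.0527) and was called without rescued replicate 3, at 0.45 (adjusted p 0.0426), by DESeq2, at 0.41 (adjusted p 0.0306), with total counts alone, at 0.51 (adjusted p 0.0263), with a mean count over 100, at 0.45 (adjusted p 0.0365), and after GC correction, at 0.41 (adjusted p 0.0337). Rescued Treg cells and wannabes, neighbours in the order of levels, were −0.18 (SE 0.14, adjusted p 0.425) apart. *Lef1* in females spread most within the resting group, with 13794, 9313 and 17691 in resting wannabes and 12336 and 12862 in activated wannabes. The groups overlapped, the change was −0.11 (SE 0.24, adjusted p 0.762), and the difference of the changes was −0.51 (SE 0.26, adjusted p 0.436), which is not called. *Lef1* and *Tcf7* thus had different orders over the male groups: wannabes were the highest in *Tcf7* and control Treg cells in *Lef1*.

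*Bach2* (ENSMUSG00000040270.16, chromosome 4, 32238804 to 32586108, plus strand) encodes a repressor that holds back effector differentiation and favours Treg cells. Normalised counts of *Bach2* were 8611, 8095 and 10207 in control Treg cells, 1821, 2075 and 2479 in rescued Treg cells, and 2069.6 and 2443 in male wannabes. Each control library lay above each of the other 5 male libraries by over 3-fold, and rescued Treg cells overlapped with wannabes. Rescued against control gave −2.08 (SE 0.17, adjusted p 0.000393), the furthest from 0 of the 9 genes in this comparison. Control against wannabe cells gave 1.99 (SE 0.20, adjusted p 0.000382). Between rescued Treg cells and wannabes no difference was called, at −0.09 (SE 0.19, adjusted p 0.815) with a 95% interval of −0.50 to 0.33; without rescued replicate 1 the value was 0.02 (adjusted p 0.978). *Bach2* was lower in activated wannabes too, with counts of 5016, 3718 and 5037 in resting wannabes and 2749 and 2693 in activated wannabes and no overlap. The log2 fold change was −0.76 (SE 0.15, adjusted p 0.0149), and the call was lost without activated replicate 1 or 2, at −0.78 to −0.75 (adjusted p 0.112 to 0.118). The fall was deeper in the male comparison by −1.31 (SE 0.24, adjusted p 0.0152), a difference called in 11 of 13 fits that leave out 1 library and lost without activated replicate 1 or 2, at −1.32 to −1.29 (adjusted p 0.0816 to 0.0842).

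*Klf2* (ENSMUSG00000055148.7, chromosome 8, 72319033 to 72321656, plus strand) encodes a factor that maintains quiescence and switches on *S1pr1*. Normalised counts of *Klf2* were 897, 926 and 789 in control Treg cells, 5426, 931 and 938 in rescued Treg cells, and 672 and 848 in male wannabes. Rescued replicate 1 alone stood high, and the other 7 male libraries lay within 672 and 938. Rescued against control gave 1.48 (SE 0.57, adjusted p 0.227), and without rescued replicate 1 it gave 0.10 (adjusted p 0.953). Rescued against wannabe cells gave 1.68 (SE 0.66, adjusted p 0.122) and without that library 0.30 (adjusted p 0.531); with no filter on low counts and that library kept it was called, at 1.68 (adjusted p 0.0393). Control Treg cells and wannabes were 0.20 (SE 0.63, adjusted p 0.868) apart, or −0.08 (adjusted p 0.945) after GC correction. *Klf2* in females stood at 11877, 3252 and 2870.2 in resting wannabes and 11878 and 16734 in activated wannabes. Resting replicate 1 sat at the level of an activated library. With it the change was 1.25 (SE 0.60, adjusted p 0.177), and without it *Klf2* was called higher in activated wannabes, at 2.23 (adjusted p 0.00162). Resting replicate 1 was set apart for its own *Klf2* level, so this call follows from the choice and is no test. The difference of the changes turned with these libraries. It was 0.23 (SE 0.94, adjusted p 0.966) with all 13, −1.14 (adjusted p 0.491) without rescued replicate 1, −0.72 (adjusted p 0.853) without resting replicate 1, and −2.09 (adjusted p 0.00453) without both. The call without both follows from the same kind of choice.

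The nearest genes of *Klf2* are those whose levels, centred within each experiment, followed it most closely over the 13 libraries. They were chosen for this, and *Jund* after its values were seen, so their height in the same libraries describes the choice and adds nothing about those libraries. *Rac1*, which encodes a small GTPase of the cytoskeleton, had Pearson's r of 0.977 with *Klf2*, and *Rnf187*, which encodes a ubiquitin ligase, 0.972. Normalised counts of *Rac1* were 1122, 1214 and 1273 in control Treg cells, 6287, 1626 and 1531 in rescued Treg cells, and 1136 and 1047 in male wannabes. In females *Rac1* had 9746, 2716 and 2274 in resting wannabes and 12985 and 15662 in activated wannabes. *Jund*, an AP-1 gene on the list of BACH2 partners, had 892, 1015 and 807 in control Treg cells, 11165, 1665 and 1455 in rescued Treg cells, and 292 and 473 in male wannabes. In females *Jund* counts were 20975, 6058 and 5179.6 in resting wannabes and 27894 and 36126 in activated wannabes. Whether the height of rescued replicate 1 and resting replicate 1 in *Klf2* comes from the animals or from their preparation was not tested.

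**Figure D2:**
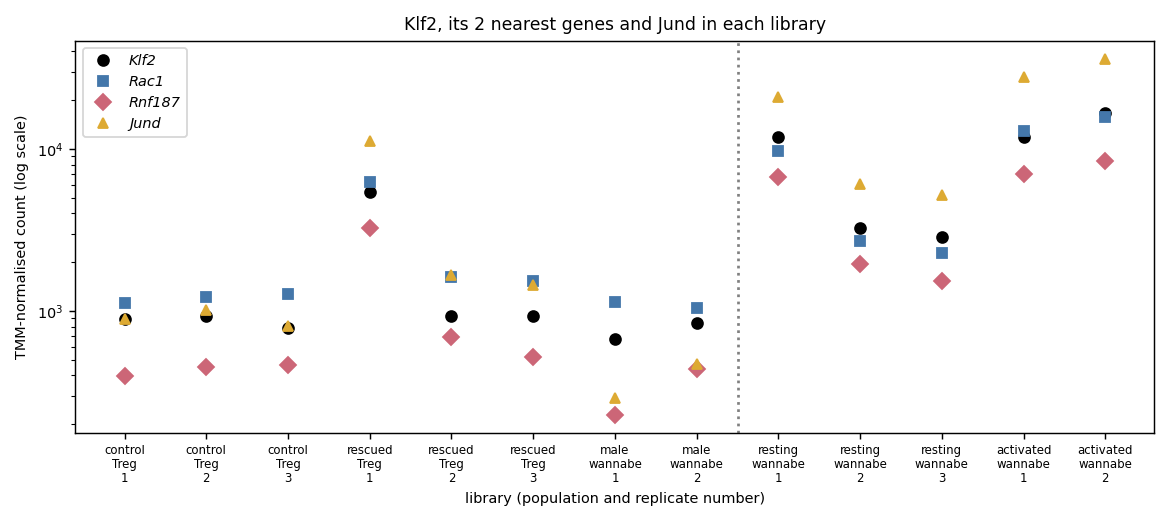
Normalised counts (vertical axis, log scale) of *Klf2*, *Rac1*, *Rnf187* and *Jund* in each of the 13 libraries (horizontal axis, male left and female right of the dotted line). Rescued replicate 1, with 5426 counts of *Klf2*, and resting replicate 1, with 11877, stand above the others of their groups.

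*Foxo1* (ENSMUSG00000044167.6, chromosome 3, 52268336 to 52353221, plus strand) encodes the factor that AKT signalling removes from the nucleus and that switches on *Klf2*, *Ccr7* and *Il7r*. Normalised counts of *Foxo1* were 6757, 5367 and 6573 in control Treg cells, 4985, 3396 and 4472 in rescued Treg cells, and 2738 and 2340.3 in male wannabes. The male groups did not overlap and stood in the order control, rescued, wannabe. Control Treg cells exceeded wannabes by 1.30 (SE 0.21, adjusted p 0.0025), a call kept whichever library was left out. Rescued against control missed the threshold, at −0.54 (SE 0.18, adjusted p 0.154), and at −0.66 (adjusted p 0.193) without rescued replicate 1. Rescued Treg cells exceeded wannabes by 0.76 (SE 0.20, adjusted p 0.0307), a call lost without control replicate 3, wannabe replicate 2 or rescued replicate 1 or 3, at 0.60 to 0.76 (adjusted p 0.0522 to 0.156) (0.63 without rescued replicate 1), and with only the compared groups in the fit, at 0.72 (adjusted p 0.088). *Foxo1* in females stood at 6996, 2706 and 2979 in resting wannabes and 5473 and 6804 in activated wannabes. Resting replicate 1 was the highest female library, so the groups overlapped, at 0.54 (SE 0.40, adjusted p 0.371). Without it, activated wannabes were called higher, at 1.11 (adjusted p 0.00438). This call, and those of the difference below made without resting replicate 1, follow from setting that library aside and are no test. The difference of the changes was −1.07 (SE 0.43, adjusted p 0.276) with all libraries, −1.19 (adjusted p 0.273) without rescued replicate 1, −1.63 (adjusted p 0.0162) without resting replicate 1, and −1.74 (adjusted p 0.0105) without both rescued replicate 1 and resting replicate 1.

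*Satb1* (ENSMUSG00000023927.15, chromosome 17, 51736187 to 51833290, minus strand) encodes a chromatin organiser needed in developing T and Treg cells. Normalised counts of *Satb1* were 9449, 7889 and 8947 in control Treg cells, 24104, 13242 and 19833 in rescued Treg cells, and 8549.7 and 9377 in male wannabes. Each rescued library lay above the other 5, and control Treg cells overlapped with wannabes. Rescued against control gave 1.12 (SE 0.20, adjusted p 0.0163), lost without control replicate 1, 2 or 3 or rescued replicate 1 or 3, at 0.92 to 1.18 (adjusted p 0.0512 to 0.0841). Against wannabes, rescued Treg cells were higher by 1.09 (SE 0.23, adjusted p 0.00824), a call kept whichever library was left out, at 0.89 to 1.34 (highest adjusted p 0.0392). Control Treg cells and wannabes, neighbours in level, gave −0.03 (SE 0.22, adjusted p 0.944) with a 95% interval of −0.51 to 0.45. In females *Satb1* rose in the same direction, with 14864, 7392 and 11294 in resting wannabes and 27626 and 33073 in activated wannabes and no overlap. The log2 fold change was 1.44 (SE 0.26, adjusted p 0.0127), and 1.70 (adjusted p 0.00549) without resting replicate 1. It was lost without activated replicate 1 or 2, at 1.29 to 1.56 (adjusted p 0.0679 to 0.103). The rises differed by −0.31 (SE 0.35, adjusted p 0.795), which is not called.

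*Ccr7* (ENSMUSG00000037944.8, chromosome 11, 99144196 to 99155077, minus strand) encodes the chemokine receptor that brings T cells into lymph nodes. Normalised counts of *Ccr7* were 19014, 19224 and 19105 in control Treg cells, 10004, 10995 and 8402 in rescued Treg cells, and 24572 and 35484 in male wannabes. The male groups did not overlap and had the order of *Tcf7*: wannabes, control, rescued. Control Treg cells were below wannabes by −0.65 (SE 0.18, adjusted p 0.0287), a call lost without control replicate 1, 2 or 3, wannabe replicate 2 or rescued replicate 2, at −0.65 to −0.41 (adjusted p 0.0505 to 0.153). Rescued Treg cells were below wannabes by −1.61 (SE 0.18, adjusted p 0.000344), a call kept whichever library was left out. The step from control to rescued, −0.96, lost its call without control replicate 1 or 3 or rescued replicate 1, at −0.98 to −0.97 (adjusted p 0.0524 to 0.0548). *Ccr7* in females overlapped between groups, at 23489, 19035 and 30419.6 in resting wannabes and 23099 and 26002 in activated wannabes, with a change of 0.01 (SE 0.19, adjusted p 0.974) and a 95% interval of −0.44 to 0.46. The difference of the changes was −0.96 (SE 0.26, adjusted p 0.092). It was called without wannabe replicate 1 or 2 or resting replicate 3, at −1.16 to −0.96 (adjusted p 0.033 to 0.044), by DESeq2, at −0.97 (adjusted p 0.018), with the replicate numbers as a block, at −1.17 (adjusted p 0.0396), and after GC correction, at −0.97 (adjusted p 0.0411).

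*S1pr1* (ENSMUSG00000045092.8, chromosome 3, 115710433 to 115715072, minus strand) encodes the sphingosine-1-phosphate receptor that lets T cells leave lymph nodes. Normalised counts of *S1pr1* were 32013, 29109 and 25006 in control Treg cells, 29917, 24895 and 26153 in rescued Treg cells, and 29250.3 and 30739.9 in male wannabes. All male groups overlapped. Rescued against control gave −0.09 (SE 0.13, adjusted p 0.83) with a 95% interval of −0.38 to 0.20. Control Treg cells against wannabes gave −0.06 (SE 0.15, adjusted p 0.825) (−0.39 to 0.27), and rescued Treg cells against wannabes gave −0.15 (SE 0.15, adjusted p 0.548) (−0.48 to 0.18). In females *S1pr1* counts were 23368, 18690.4 and 26222 in resting wannabes and 23100.2 and 24521 in activated wannabes, with the activated libraries inside the resting range. The change was 0.06 (SE 0.14, adjusted p 0.783) (−0.28 to 0.40), and the changes differed by −0.14 (SE 0.20, adjusted p 0.855) (−0.57 to 0.29). Neighbouring groups in *S1pr1* level therefore did not differ beyond their spread in either experiment. The receptor for entry and the receptor for exit thus had different patterns in males, with called steps in *Ccr7* and intervals around 0 for *S1pr1*; the contrast between the receptors was not itself tested.

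*Il7r* (ENSMUSG00000003882.5, chromosome 15, 9505788 to 9530176, minus strand) encodes the alpha chain of the receptor that gives resting T cells a survival signal. Normalised counts of *Il7r* were 6399, 5590.4 and 7891 in control Treg cells, 16317, 10436 and 13421 in rescued Treg cells, and 11746 and 10444 in male wannabes. Each control library lay below the other 5 male libraries, and rescued Treg cells overlapped with wannabes. Rescued Treg cells exceeded control by 1.01 (SE 0.19, adjusted p 0.0191), lost without control replicate 1 or 2 or rescued replicate 1 or 3, at 0.85 to 1.01 (adjusted p 0.0521 to 0.102). Control Treg cells were below wannabes by −0.74 (SE 0.21, adjusted p 0.0308), lost without control replicate 1 or 2 or wannabe replicate 1, at −0.72 to −0.63 (adjusted p 0.0923 to 0.105). Rescued Treg cells and wannabes gave 0.27 (SE 0.21, adjusted p 0.428) with a 95% interval of −0.19 to 0.73, and −0.09 (adjusted p 0.811) after GC correction. *Il7r* in females stood at 11924, 15213 and 12024 in resting wannabes and 11999.6 and 10329.6 in activated wannabes, an overlap with a change of −0.23 (SE 0.13, adjusted p 0.255). The changes differed by 1.26 (SE 0.26, adjusted p 0.033). That call was lost without control replicate 1 or 2, rescued replicate 1 or 3, resting replicate 1 or 2, or activated replicate 1 or 2, at 1.09 to 1.37 (adjusted p 0.0511 to 0.219), and without both rescued replicate 1 and resting replicate 1 it was 1.17 (adjusted p 0.0634).

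**Figure D3:**
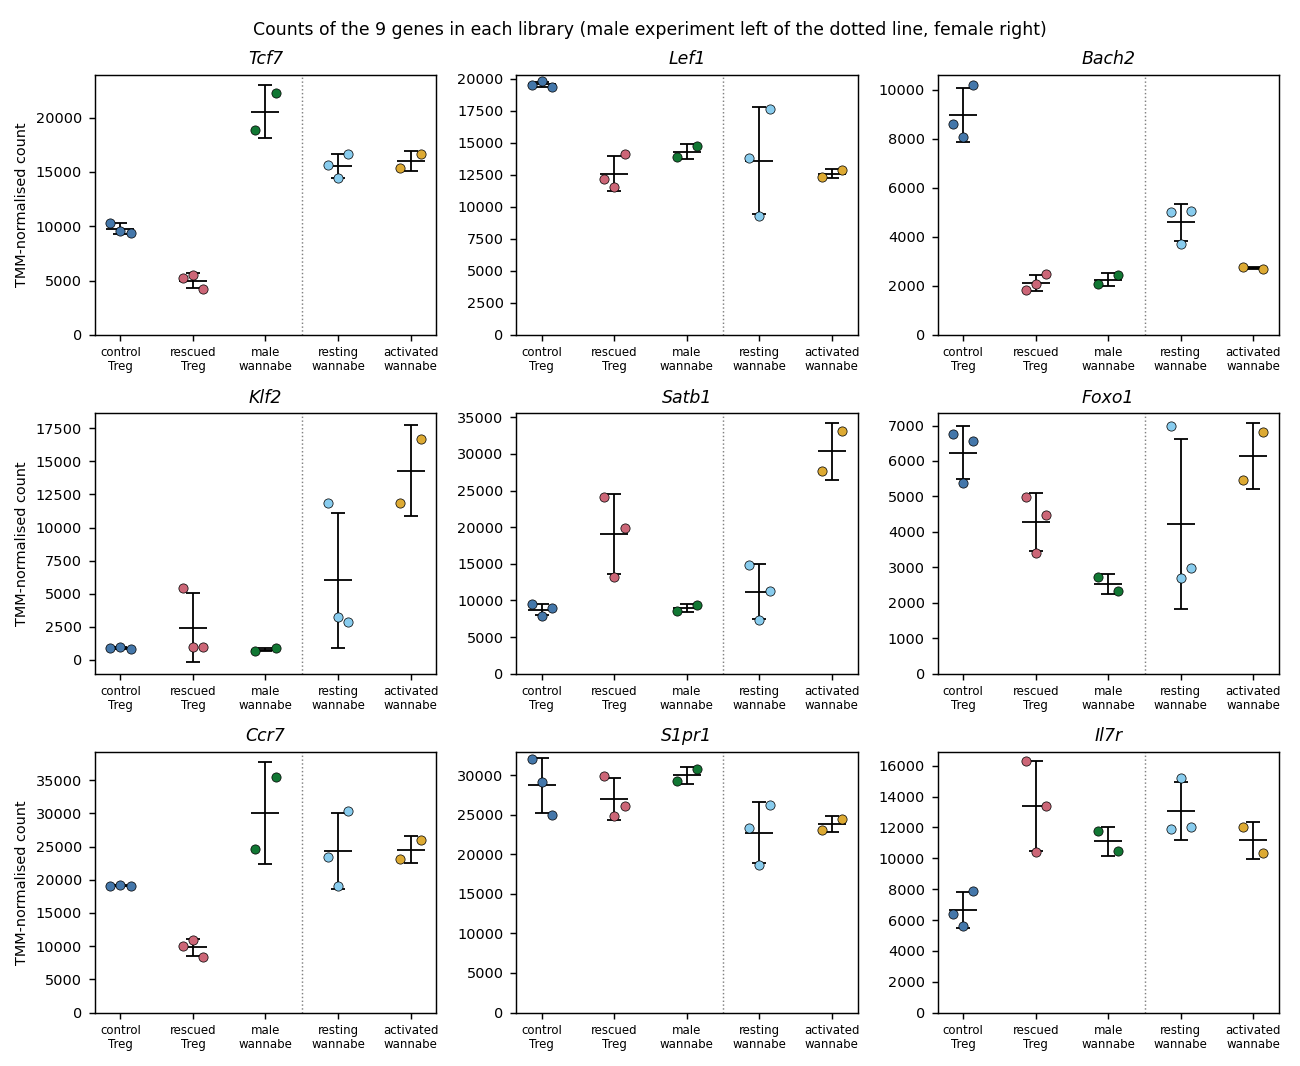
Normalised counts (vertical axis) of the 9 genes in each library, 1 panel per gene, with the groups along the horizontal axis; points are libraries, and the black bars are the group mean and SD. Control Treg libraries of *Bach2* reach 10207 counts, and rescued ones 2479.

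Rescued Treg cells thus overlapped with male wannabes in *Lef1*, *Bach2*, *S1pr1* and *Il7r*, and lay further from wannabes than control Treg cells did in *Tcf7* and *Ccr7*. They lay between both groups in *Foxo1* and above both in *Satb1* and *Klf2*, in *Klf2* by little except in replicate 1. These overlaps describe few libraries and were not set against those over all genes. The members did not vary as a unit. Over the 13 libraries, with log2 levels centred within each experiment, *Tcf7* and *Ccr7* had Pearson's r of 0.962, *Klf2* and *Satb1* 0.808 and *Lef1* and *Bach2* 0.795. Rescued replicate 1 and resting replicate 1, which stood apart in *Klf2*, were also the highest of their groups in *Satb1*, and this r was not computed without them. *Il7r* ran against *Bach2* (r −0.783) and *Lef1* (r −0.747). *Tcf7* and *Bach2* had an r of 0.117. These values describe libraries that share groups, so differences between groups enter them, and no p is given.

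Other members had their nearest genes by the same measure, so that a likeness in level is again the choice itself. *Bach2* was followed by *Baz2b* (r 0.98), a chromatin reader gene, and *Cd72* (r 0.970), a surface lectin gene. Normalised counts of *Baz2b* were 2991, 2627 and 3043 in control Treg cells, 816, 969 and 1279.8 in rescued Treg cells, and 889 and 866 in male wannabes. *Tcf7* and *Ccr7* were each other's nearest gene, and *Ccr7* had *Bcl6* (r 0.961), a repressor gene of follicular T cells, next. Normalised counts of *Bcl6* were 652, 641 and 681 in control Treg cells, 417, 343 and 385 in rescued Treg cells, and 874 and 1399 in male wannabes. *Bmp7* (r 0.96), which encodes a secreted growth factor, was the nearest to *Satb1*, with 338, 366 and 509.7 in control Treg cells, 2192, 1015 and 1679 in rescued Treg cells, and 623 and 805 in male wannabes. *Egln3* (r 0.919), which encodes an oxygen-sensing hydroxylase, was the nearest to *Il7r*. *Patj* (r 0.903) followed *Lef1*, *Stim2* (r 0.923) followed *Foxo1*, and for *S1pr1* the nearest was *Per2* with an r of 0.828.

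Partners and pathways of the members were followed in lists, chosen with earlier results known. Beside the counts called in a list stand, in brackets, the share of all genes tested that was called in either direction and the list's median log2 fold change. A share of the list near that of all genes is no result about the list. The same holds at an unadjusted p under 0.05. In the main fits 2403 of 14925 genes had it in rescued against control, 4655 in control against wannabe and 4178 in rescued against wannabe. In activated against resting 5016 of 13166 genes had it. Over all genes tested the median was −0.03 for rescued against control, 0.09 for control against wannabe, 0.00 for rescued against wannabe and −0.01 for activated against resting. Of 16 partners of the *Tcf7* and *Lef1* products, 0 were called by edgeR in rescued against control (2.30% of all genes, median 0.03). At an unadjusted p under 0.05 stood 4 of them, next to 2403 of 14925 genes in all. DESeq2 called 2 of them, and it called more genes in all than edgeR (counts at the end). Against wannabes, 4 higher and 1 lower were called in control Treg cells (16.2% of all genes; median 0.70), and 4 higher in rescued Treg cells (14.1% of all genes; median 0.53). *Ctnnb1*, the beta-catenin gene, had normalised counts of 7697, 8414 and 6261 in control Treg cells, 10596, 10100.2 and 9919 in rescued Treg cells, and 1971 and 2592 in male wannabes. Both Treg groups lay above wannabes in it, control by 1.71 (SE 0.19, adjusted p 0.000516) and rescued by 2.16 (SE 0.20, adjusted p 0.000233). *Gsk3b*, whose kinase marks beta-catenin for decay, was called higher in both Treg groups, by 1.17 (SE 0.22, adjusted p 0.00461) in rescued Treg cells. In activated wannabes 2 lower were called (22.5% of all genes; median −0.11), a smaller share than over all genes, with *Tle2* among them at −2.51 (SE 0.38, adjusted p 0.00634). Leaving out 1 library moved the count of TCF/LEF partners for control against wannabe to 2 without control replicate 3 and 3 without control replicate 2 or male wannabe replicate 2 and for rescued against wannabe to 2 without male wannabe replicate 2 or rescued replicate 1. It also moved for activated against resting to 0 without activated replicate 1 (4 at an unadjusted p under 0.05) and 1 without resting replicate 3 or activated replicate 2. The TCF/LEF split for activated against resting became 1 higher and 1 lower without resting replicate 1.

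Of 18 FOXO pathway genes, 1 lower was called in rescued against control (2.30% of all genes; median −0.10), 3 higher and 2 lower in control against wannabe cells (16.2% of all genes; median 0.12), 3 higher and 2 lower in rescued against wannabe cells (14.1% of all genes; median 0.04), and 1 higher and 7 lower in activated against resting wannabes (22.5% of all genes; median −0.33). *Sesn1*, a FOXO target whose product restrains growth signalling, was called in all 4. Normalised counts of *Sesn1* were 13396, 11007 and 11132 in control Treg cells, 4384, 5377 and 6844 in rescued Treg cells, and 1136 and 995 in male wannabes. The male groups did not overlap and stood in the order of *Foxo1*: control, rescued, wannabe. Control exceeded wannabe cells by 3.48 (SE 0.23, adjusted p 5.17e-05) and rescued exceeded wannabe cells by 2.38 (SE 0.22, adjusted p 0.000233), and rescued fell below control at −1.10 (SE 0.18, adjusted p 0.0116). In females *Sesn1* counts were 7190.2, 6989 and 8358 in resting wannabes and 1814 and 1954 in activated wannabes. The female fits that leave out 1 library gave −2.06 to −1.92 for *Sesn1*, with the call kept in each. *Sgk1*, a kinase gene that opposes FOXO1, was lower in control Treg cells than in wannabes by −1.93 (SE 0.27, adjusted p 0.00138), and *Tsc22d3*, a FOXO target, was lower in activated wannabes by −1.45 (SE 0.14, adjusted p 0.00119). Without single libraries the FOXO count moved for rescued against control to 0 without control replicate 1 or rescued replicate 2 (4 to 5 at an unadjusted p under 0.05) and for control against wannabe to 3 without control replicate 1 or 2 and 8 without male wannabe replicate 1. It also moved for rescued against wannabe to 1 without rescued replicate 2, 2 without male wannabe replicate 2, 3 without rescued replicate 1 or 3 and 8 without male wannabe replicate 1 and for activated against resting to 2 without activated replicate 1 or 2. The FOXO split for control against wannabe became 3 higher and 1 lower without male wannabe replicate 2. Without male wannabe replicate 1 it was 3 higher and 5 lower, and so was that for rescued against wannabe. The split for activated against resting became 7 lower alone without resting replicate 3.

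Among 17 other quiescence genes, 2 lower were called in rescued against control (2.30% of all genes; median 0.05). These were *Foxp1*, a factor that holds naive T cells at rest, at −1.07 (SE 0.14, adjusted p 0.00397), and *Id3*, which encodes an inhibitor of E proteins, at −1.50 (SE 0.24, adjusted p 0.0103). Normalised counts of *Foxp1* were 26083, 25017 and 28372 in control Treg cells, 11836, 11548 and 14550.3 in rescued Treg cells, and 17878 and 20676 in male wannabes, with each rescued library the lowest of the 8, as for *Tcf7* and *Ccr7*. Against wannabes, 5 higher and 1 lower were called in control (16.2% of all genes; median 0.46) and 5 higher and 3 lower in rescued Treg cells (14.1% of all genes; median 0.13). The antiproliferative genes *Btg1* and *Tob1* were among the higher ones, *Tob1* by 2.93 (SE 0.51, adjusted p 0.00377) in control and 3.66 (SE 0.53, adjusted p 0.00104) in rescued Treg cells. In activated wannabes 8 lower were called (22.5% of all genes; median −0.31), *Tob2* by −0.82 (SE 0.08, adjusted p 0.00111) and *Btg1* by −1.02 (SE 0.10, adjusted p 0.00122). The quiescence gene count moved for rescued against control to 1 without control replicate 1 and for activated against resting to 4 without activated replicate 1 and 5 without resting replicate 3 or activated replicate 2. The quiescence split for rescued against control became 1 higher and 2 lower without male wannabe replicate 1 or 2. That for control against wannabe became 5 higher alone without control replicate 1 or male wannabe replicate 2, 4 higher alone without control replicate 3, and 5 higher and 2 lower without male wannabe replicate 1. That for rescued against wannabe became 5 higher and 6 lower without male wannabe replicate 1, and 5 higher and 1 lower without male wannabe replicate 2 or rescued replicate 1 or 2. That for activated against resting became 3 higher and 6 lower without resting replicate 1.

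Of 9 BACH2 partners and targets, *Prdm1*, the effector gene that BACH2 represses, was the gene called in rescued against control, at 1.46 (SE 0.29, adjusted p 0.0276) (2.30% of all genes; list median 0.50). Normalised counts of *Prdm1* were 2725, 1846 and 2031 in control Treg cells, 4312, 4797 and 9017 in rescued Treg cells, and 2811 and 4471 in male wannabes. Each rescued library lay above each control library, rescued replicate 3 the furthest. In control against wannabe cells 2 lower were called (16.2% of all genes; median 0.33), in rescued against wannabe cells 1 higher (14.1% of all genes; median 0.41), and in activated against resting wannabes 2 higher and 1 lower (22.5% of all genes; median 0.09). The gene called in rescued against wannabe cells, a share close to that over all genes, was *Jund*, at 3.64 (SE 0.82, adjusted p 0.0129); without rescued replicate 1 its log2 fold change was 2.03. *Junb*, another AP-1 gene, was lower in activated wannabes by −0.75 (SE 0.11, adjusted p 0.00652). By left-out library the BACH2 list count moved for rescued against control to 0 without control replicate 1, 2 or 3 or rescued replicate 3 (3 to 5 at an unadjusted p under 0.05) and for control against wannabe to 0 without control replicate 1 or 2, rescued replicate 2 or male wannabe replicate 2 (3 to 5 at an unadjusted p under 0.05) and 1 without male wannabe replicate 1. The count further moved for rescued against wannabe to 0 without male wannabe replicate 1 (2 at an unadjusted p under 0.05) and 2 without male wannabe replicate 2 or rescued replicate 3 and for activated against resting to 1 without activated replicate 1 or 2. The BACH2 list split for control against wannabe became 1 higher and 1 lower without rescued replicate 1 or 3. That for activated against resting became 2 lower alone without resting replicate 3.

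Of 12 genes of interleukin-7 receptor signalling, 1 higher and 1 lower were called in rescued against control (2.30% of all genes; median 0.22). *Bcl2*, the survival gene induced by this receptor, was the lower one, at −1.09 (SE 0.15, adjusted p 0.00645), with normalised counts of 17059, 19229 and 19388 in control Treg cells, 7683, 8936 and 9615 in rescued Treg cells, and 15027 and 20242 in male wannabes. Each rescued library was below the other 5, while the same libraries were above control in *Il7r*. *Crlf2*, which encodes a receptor chain that pairs with the *Il7r* product, was the higher one, at 1.11 (SE 0.22, adjusted p 0.0239). Against wannabes, 3 higher and 1 lower were called in control (16.2% of all genes; median 0.46) and 5 higher and 2 lower in rescued Treg cells (14.1% of all genes; median 0.77). *Jak1*, the kinase gene of the receptor complex, was higher by 1.24 (SE 0.16, adjusted p 0.00105) in control and 1.38 (SE 0.16, adjusted p 0.0004) in rescued Treg cells. In activated wannabes 5 higher were called (22.5% of all genes; median 0.39), with *Cish*, a feedback inhibitor gene, at 0.69 (SE 0.10, adjusted p 0.00639). The signalling count moved for rescued against control to 1 without control replicate 1, 2 or 3 or rescued replicate 1, 2 or 3 and for control against wannabe to 2 without control replicate 2. The count further moved for activated against resting to 0 without activated replicate 2 (4 at an unadjusted p under 0.05) and 2 without activated replicate 1. The signalling split for control against wannabe became 1 higher and 2 lower without male wannabe replicate 1, and 5 higher and 1 lower without male wannabe replicate 2. That for rescued against wannabe became 6 higher and 1 lower without male wannabe replicate 2.

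Of 12 genes of the sphingosine-1-phosphate pathway, 8 were tested in males and 9 in females. *Gnai2*, the G protein gene through which *S1pr1* and *Ccr7* products signal, was the gene called in rescued against control, at 0.78 (SE 0.17, adjusted p 0.0418) (2.30% of all genes; list median 0.02), and was higher than in wannabes by 1.48 (SE 0.20, adjusted p 0.00126) in control and 2.26 (SE 0.21, adjusted p 0.000233) in rescued Treg cells. In all, 2 higher were called in control against wannabe cells (16.2% of all genes; median −0.38) and 1 higher in rescued against wannabe cells (14.1% of all genes; median −0.24), the second a share close to that over all genes. In activated wannabes 3 lower were called (22.5% of all genes; median −0.25), *Sgpl1*, *Cd69* and *Rgs1*. *Cd69*, whose product removes the *S1pr1* receptor from the surface, stood at −0.42 (SE 0.10, adjusted p 0.0298) there. The count of this pathway moved for rescued against control to 0 without control replicate 1, 2 or 3 or rescued replicate 1, 2 or 3 (1 to 3 at an unadjusted p under 0.05) and for control against wannabe to 1 without control replicate 1 or 3 or male wannabe replicate 2 and 4 without male wannabe replicate 1. The count further moved for rescued against wannabe to 2 without male wannabe replicate 2 and 3 without male wannabe replicate 1 and for activated against resting to 0 without activated replicate 1 or 2 (3 at an unadjusted p under 0.05). The pathway split for activated against resting became 1 higher and 2 lower without resting replicate 1. That for control against wannabe became 2 higher and 2 lower without male wannabe replicate 1. That for rescued against wannabe became 1 higher and 2 lower without male wannabe replicate 1, and 1 higher and 1 lower without replicate 2.

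Of 11 other genes of lymph node homing and positioning, 10 were tested. *Gpr183*, which guides cells to the edges of follicles, was the gene called in rescued against control, at 1.18 (SE 0.18, adjusted p 0.00964) (2.30% of all genes; list median 0.14). Normalised counts of *Gpr183* were 3654, 2866 and 2744 in control Treg cells, 8709.9, 5811 and 6507 in rescued Treg cells, and 12136 and 11491 in male wannabes, so the order was wannabe, rescued, control. In control against wannabe cells 3 higher and 1 lower were called (16.2% of all genes; median −0.33) and in rescued against wannabe cells 1 higher and 1 lower (14.1% of all genes; median −0.11), with the integrin gene *Itgb7* higher in both, by 1.36 (SE 0.22, adjusted p 0.00274) and 2.03 (SE 0.23, adjusted p 0.000372). In activated wannabes 3 lower were called (22.5% of all genes; median −0.08), the integrin gene *Itga4* by −1.60 (SE 0.08, adjusted p 0.000249) and the chemokine receptor gene *Cxcr4* by −1.11 (SE 0.16, adjusted p 0.00563). The homing count moved for rescued against control to 0 without control replicate 3 (3 at an unadjusted p under 0.05) and 3 without male wannabe replicate 1 or 2 and for rescued against wannabe to 1 without male wannabe replicate 2 or rescued replicate 2 or 3. The count further moved for activated against resting to 1 without activated replicate 1. The homing split for rescued against control became 2 higher and 1 lower without male wannabe replicate 1 or 2. That for control against wannabe became 2 higher and 4 lower without male wannabe replicate 1. That for rescued against wannabe became 2 higher and 1 lower without male wannabe replicate 1. That for activated against resting became 1 higher and 3 lower without resting replicate 2, and 1 higher and 2 lower without resting replicate 3.

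Genes of effector Treg cells, a list that includes genes the study itself reported on these libraries, were followed beside it. Of 16, 7 higher were called in rescued against control (2.30% of all genes; median 0.75), among them *Itgae*, an integrin gene of tissue T cells, at 1.96 (SE 0.22, adjusted p 0.00199) and *Id2*, the relative of *Id3*, at 1.46 (SE 0.19, adjusted p 0.0042). Normalised counts of *Id2* were 2102, 1704 and 1701 in control Treg cells, 5092, 6176 and 3869 in rescued Treg cells, and 15639 and 13612 in male wannabes. In control against wannabe cells 4 higher and 5 lower were called (16.2% of all genes; median −0.42), in rescued against wannabe cells 6 higher and 2 lower (14.1% of all genes; median 0.53), and in activated against resting wannabes 7 higher and 2 lower (22.5% of all genes; median 0.54). *Itgae* rose in activated wannabes as well, by 2.42 (SE 0.26, adjusted p 0.00181). The effector count moved for rescued against control to 4 without control replicate 2 and for activated against resting to 4 without activated replicate 1 or 2. The effector split for control against wannabe became 4 higher and 2 lower without control replicate 2, 3 higher and 3 lower without control replicate 3, and 4 higher and 3 lower without rescued replicate 2. That for activated against resting became 7 higher and 4 lower without resting replicate 3.

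The difference of the changes was called for few list genes, next to 1.53% of all genes tested, whose median was −0.03. It was called for 2 of 17 quiescence genes, *Btg1* at 1.56 (SE 0.29, adjusted p 0.0167) and *Txnip* at 1.29 (SE 0.27, adjusted p 0.0299) (list median 0.47), and for *Bcl2* of the 12 signalling genes at −1.37 (SE 0.24, adjusted p 0.013) (median −0.23). *Prdm1*, which stands in the BACH2 and effector lists, was called at 2.27 (SE 0.47, adjusted p 0.0299) (median 0.82 of the BACH2 list), *Gpr183* at 1.16 (SE 0.24, adjusted p 0.0281) (median 0.53 of the homing list), and *Id2* and *Maf* of the effector genes at 1.80 (SE 0.30, adjusted p 0.012) and 2.30 (SE 0.43, adjusted p 0.0163) (median 0.24). By edgeR 0 were called of the TCF/LEF partners (median −0.09), the FOXO pathway (median 0.29) and the sphingosine-1-phosphate pathway (median 0.21). At an unadjusted p under 0.05 stood 4, 3 and 2 of their genes, next to 2096 of 15201 genes in all, and DESeq2 called 2, 2 and 0. Without activated replicate 1 or 2 none of the 7 named genes was called, and *Txnip*, *Prdm1* and *Gpr183* lost their calls without other libraries too: *Txnip* without rescued replicate 2 or resting replicate 2, the other pair without control replicate 2 or 3 or resting replicate 1 or 2. Without male wannabe replicate 1 or 2 the count was 4 for quiescence and 3 for homing genes, and 3 higher and 1 lower for effector genes, without rescued replicate 1 or 2 it was 1 for the FOXO pathway, and without resting replicate 3 it was 5 for effector genes.

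Genes of the heat shock and tissue dissociation response, which can report on handling, moved with the groups. The summed normalised count of 10 such genes was 38395, 27752 and 22201 in control Treg cells, 35079, 33776 and 22600.2 in rescued Treg cells, 13766 and 17648 in male wannabes, 79095, 81839.5 and 79237 in resting wannabes and 43178 and 37366 in activated wannabes. The most abundant of them was *Jun* in resting libraries, *Dnajb1* in male wannabe replicate 1 and *Ier2* in the other libraries. Control and rescued libraries overlapped, and male wannabe libraries lay below both. Resting libraries lay above activated ones. Of the 10 genes, *Hspa1a* alone was called by edgeR in rescued against control, lower at −5.44 (SE 1.11, adjusted p 0.0291) (2.30% of all genes), with normalised counts of 1603, 125 and 116 in control and 11.3, 19.4 and 12.0 in rescued Treg cells. Control replicate 1 stood far above the others, the value was −3.08 and not called without it, the call was also lost without rescued replicate 1, 2 or 3, and DESeq2 gave no adjusted p for this gene. DESeq2 alone called *Hspa1b* in the same comparison. Called higher in control against wannabe cells were 6 (16.2%), *Hspa1a*, *Hspa1b*, *Hsph1*, *Jun*, *Egr1* and *Ier2*. All 6 lost their calls without male wannabe replicate 1, and all but *Ier2* without control replicate 1. Rescued against wannabe cells had 3 higher (14.1%), *Jun*, *Egr1* and *Ier2*, of which *Jun* lost its call without male wannabe replicate 1. Lower in activated against resting wannabes were 7 (22.5%), *Hspa1a*, *Hspa1b*, *Dnajb1*, *Hsph1*, *Fos*, *Jun* and *Egr1*, of which *Egr1* lost its call without activated replicate 1. The difference of the changes was called for 2 of the 10 (1.53%), *Dnajb1* at 1.09 (SE 0.20, adjusted p 0.0155) and *Egr1* at 1.33 (SE 0.29, adjusted p 0.0374). At an unadjusted p under 0.05 stood 5, next to 2096 of 15201 genes in all, and DESeq2 called *Hsph1* as well. With 1 library left out, *Dnajb1* was called in 11 of 13 fits and *Egr1* in 4 of 13. The part of this response in the results above was not tested.

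The annotation places other transcripts on the opposite strand of some members. *Bach2os* overlaps 537 exonic bases of *Bach2*, which is 5.4% of its exon length, and the libraries do not mark the strand. Normalised counts of *Bach2os* were 384, 622 and 559.8 in control Treg cells, 178, 187 and 173 in rescued Treg cells, and 139 and 415 in male wannabes, and 901, 666 and 832 in resting wannabes and 530.0 and 513 in activated wannabes, so each library held fewer than those of *Bach2*. *Gm43352* overlaps 13.7% of the exon length of *Lef1* and *Gm20402* 7.78% of that of *Foxo1*, and neither has its own row in the tables.

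RefSeq windows on GRCm38.p6, from 250 bases before to 50 after a transcript start, were at hand for 7 of the 9 members, 15 windows in all; the others are *Ccr7* and *S1pr1*. They were searched on both strands for CTTTGAT, letters bound by the *Tcf7* and *Lef1* products, which 3.73% of all 32851 windows hold, for GTAAACA, bound by FOXO factors (3.65%), and for TGAGTCA, bound by BACH2 and AP-1 (5.2%). The 15 windows held 1 match, GTAAACA in 1 of the 2 windows of *Tcf7*, starting at base 2 after the start. It is shown because *Tcf7* was called in all 3 male comparisons, with the matching letters in capitals, from the minus strand of chr11:52282577-52282605 on GRCm38.p6. A match of letters is a description and not a binding site.
*Tcf7*: cctttataggaGTAAACAgacccccgcca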

How the data were processed

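RNA was measured in 13 libraries made with a kit that does not mark strand. The authors aligned reads to GRCm38 with STAR 2.7.3a, realigned them with the Genome Analysis Toolkit and deposited raw counts per gene, 1 column per library; the annotation and strand setting of the counting are not given. The labels also name DESeq2 1.28.1.

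The series description gives 3 activated and 2 resting libraries, while titles and genotypes give 2 and 3; the titles and genotypes were used. Rows without a gene name (4 per table, under 0.01% of counts) were left out. Counts were fitted with edgeR 4.0.16 in R 4.3.3 (TMM, filterByExpr, quasi-likelihood F test, two-sided, Benjamini-Hochberg over all genes tested, called at an adjusted p under 0.05), with the 8 male, the 5 female or all 13 libraries in a fit and group as the term. Log2 CPM for correlations used a prior count of 2. The steps were tested on simulated data. Members and gene lists were chosen with earlier results of these data known. Named genes are the 9 members, *Foxp3*, *Thy1* and up to 3 called genes of smallest p per list and comparison. Up to 2 genes nearest to each member are named as well, from those with a mean normalised count over 100 in both experiments. *Jund* is set beside *Klf2* after its values were seen, and marker genes are named where called.

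Positions, exon overlaps, lengths and GC content came from GENCODE M21, which matched 96.9% of symbols; lengths are of the longest protein-coding transcript. Totals of 25558402 to 36660933 counts make 3 counts, the floor for a gene at 0, at most 1.2e-05% of a library; floors cover counting error only. Replicates of a group differed beyond counting noise, with chi-square per degree of freedom of 13.2 to 144 between pairs. Alternatives were DESeq2 1.42.0, its size factors in edgeR, total counts alone, no filter, a mean count over 100, the replicate number as a block, the 2 compared groups alone, and each library left out. A GC correction and the removal of 2 libraries together were added after seeing the data.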

Additional observations from a re-analysis of the deposited data

Results flagged for a closer look

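The change from control to rescued Treg cells differed from the change from resting to activated wannabes in 3 of the 9 genes, by a test of the difference itself over the 13 libraries (edgeR, adjusted over all genes). *Tcf7* differed by −1.01 on the log2 scale (adjusted p 0.0145): each rescued library lay below each control library, while the female groups overlapped. *Bach2* differed by −1.31 (adjusted p 0.0152), being lower in both comparisons and by more in the male one. *Il7r* differed by 1.26 (adjusted p 0.033), with each rescued library above each control library and overlapping female groups. Over the fits that leave out 1 library, the difference ran from −1.06 to −0.88 for *Tcf7*, from −1.41 to −1.17 for *Bach2* and from 1.09 to 1.43 for *Il7r*. All 3 calls were lost without activated replicate 1 or activated replicate 2. *Il7r* also lost its call without control replicate 1 or 2, rescued replicate 1 or 3, or resting replicate 1 or 2. Of 10 genes of the heat shock and tissue dissociation response, *Dnajb1* and *Egr1* were called higher in the same difference, next to 1.53% of all genes (in 11 and 4 of 13 fits that leave out 1 library), and the part of this response was not tested. Sex, age, treatment, Foxp3 protein, Cre and the *Foxp3* alleles compared differ between the experiments and cannot be told apart in these differences. No group holds 4 or more libraries, so no library was tested as an outlier.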

How the results depend on the processing

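With 2 or 3 libraries a group, single libraries set many calls; a group left with 1 library is assumed to vary like the others. Over 378 member fits that leave out 1 library, 313 kept direction and side of the threshold, 45 lost a call, 7 gained one and 13 changed sign; over 297 other planned fits, 286 kept both, 1 lost a call, 6 gained one and 4 changed sign. No sign change was of a member called in the main fit (0 of 22, GC correction and the 2 libraries left out together included), but *Klf2* in the difference went from 0.23, not called, to −2.09, called, without both rescued replicate 1 and resting replicate 1. The cause was not tested, except that leaving libraries out leaves fewer to test.

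Leaving out 1 library, members called ranged from 2 to 6 (rescued against control), 3 to 6 (control against wannabe), 0 to 4 (activated against resting) and 0 to 4 (difference of the changes). The counts of 0 came from the edgeR fits without activated replicate 1 or 2, which leave 1 activated library. All genes called ranged from 114 to 598, from 1549 to 2423, from 751 to 3215 and from 44 to 430 in the same order. DESeq2 called 1195 genes in rescued against control, 3751 in control against wannabe, 3316 in rescued against wannabe and 792 in the difference. In rescued against control, 612 were called with no filter, 580 with the 2 compared groups alone and 529 with the GC correction, which gave 367 in the difference.

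Signs changed as follows. In control against wannabe, *Klf2* was −0.076 with the GC correction, *Satb1* was 0.027 with total counts and −0.099 to 0.041 without single libraries, and *S1pr1* was −0.15 to 0.033 without single libraries. In rescued against wannabe, *Il7r* was −0.090 with the GC correction and *Bach2* −0.21 to 0.015 without single libraries. In activated against resting, *Ccr7* was −0.0017 with total counts, −0.0070 with the GC correction and −0.14 to 0.20 without single libraries. There, leaving out 1 library gave −0.030 to 0.093 for *Tcf7*, −0.33 to 0.12 for *Lef1* and −0.064 to 0.18 for *S1pr1*. In the difference, *Klf2* was −0.13 with the GC correction, −2.09 without both rescued replicate 1 and resting replicate 1, and −1.14 to 0.66 without single libraries. The GC correction and the removal of both were chosen after seeing the data.

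Deviations of same-numbered libraries from their group means correlated at −0.08 to 0.24, and those of other pairs at −0.24 to 0.20. In groups of 2 or 3 libraries the deviations constrain each other, so this cannot decide whether same-numbered libraries are paired. With the replicate number as a block, members called were 6, 5, 4, 2 and 4 in the 5 comparisons, all genes called were 426, 2304, 1968, 2045 and 238, *Lef1* in activated against resting was 0.15 and *Klf2* in the difference −0.074.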
